A study of Mus musculus with 6 samples.

Results

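The genes described here are 8 receptors and regulators of hormone-sensing luminal cells of the mammary gland: the receptors Esr1, Pgr and Prlr, the transcription factors Foxa1, Gata3 and Tbx3, the coactivator Cited1, and the secreted factor Tnfsf11. They were followed in sorted cells of mammary tumours from MMTV-Wnt-1 mice. Members were taken as the probe sets whose annotation gives one of these symbols alone, at any level, and each gene was represented by the probe set with the highest mean over all arrays. This gave 7 genes with 16 probe sets, of 18193 genes and 45037 probe sets in all. Prlr had no probe set with that single symbol and is not analysed here.

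In MMTV-Wnt-1 mice the mouse mammary tumour virus promoter drives a Wnt1 transgene in mammary epithelium, and all 6 samples carry it. Tumours of 3 mice were split by fluorescence-activated sorting into a population labelled tumorigenic, gated CD24+Thy+CD45-, and a population labelled nontumorigenic, described as not CD24+Thy+CD45-. Each population of each mouse went onto 1 Affymetrix array, so both groups hold 3 arrays and the same 3 animals stand in both. The labels give no strain, age or treatment. Values are log2 expression values after RMA (robust multi-array average). Every log2 difference was taken as tumorigenic label minus nontumorigenic label, and levels of different probe sets are not compared. Each sample is RNA from many cells, so fewer cells of a type and less RNA per cell cannot be told apart.

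Hormone-sensing cells are the minority of luminal cells that carry the nuclear receptors for oestrogen (Esr1) and progesterone (Pgr). Foxa1, a pioneer factor that opens chromatin, and Gata3, a zinc finger factor needed for luminal differentiation, act together with Esr1 at its target genes. Progesterone acts on neighbouring cells largely through paracrine signals, among them the RANK ligand encoded by Tnfsf11.

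The regions just before the starts of the Foxa1, Gata3 and Esr1 transcripts are shown because these 3 genes form that luminal circuit; Foxa1 and Gata3 were lower under the tumorigenic label in each of the 3 mice, and Esr1 was not. The sequences are from RefSeq on build GRCm38.p6, 250 bases ending at the base before the annotated start, written 5′ to 3′ on the gene's strand. Of the 8 listed genes, 7 matched an entry by symbol, and Tbx3 did not. Capitals mark matches on either strand to a forkhead motif (TGTTTAC or TGTTTGC) or a GATA motif (GATAA or GATAG, preceded by A or T). For Foxa1 the window is chr12:57546112-57546361 on the minus strand, for Gata3 chr2:9878601-9878850 on the minus strand, and for Esr1 chr10:4611739-4611988 on the plus strand, the first listed of 2 starts.
Foxa1: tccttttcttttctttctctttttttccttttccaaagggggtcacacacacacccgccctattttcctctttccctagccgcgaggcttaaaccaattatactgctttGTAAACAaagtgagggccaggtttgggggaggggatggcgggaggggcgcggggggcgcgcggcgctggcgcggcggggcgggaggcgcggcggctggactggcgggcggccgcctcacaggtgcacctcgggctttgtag
Gata3: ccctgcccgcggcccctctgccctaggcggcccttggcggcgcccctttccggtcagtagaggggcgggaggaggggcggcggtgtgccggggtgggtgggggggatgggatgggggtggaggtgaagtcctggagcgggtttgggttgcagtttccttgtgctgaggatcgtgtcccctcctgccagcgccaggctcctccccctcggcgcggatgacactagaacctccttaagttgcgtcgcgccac
Esr1: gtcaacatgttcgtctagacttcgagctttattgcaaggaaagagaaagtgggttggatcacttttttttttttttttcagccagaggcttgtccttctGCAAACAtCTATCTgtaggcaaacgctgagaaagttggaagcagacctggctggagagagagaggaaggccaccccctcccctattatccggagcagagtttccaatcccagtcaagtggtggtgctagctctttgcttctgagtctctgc
The Foxa1 window held 1 forkhead match, which began 141 bases before the start. The Esr1 window held a forkhead match at 151 bases and a GATA match at 143 bases before the start, 1 base apart and not overlapping. The window at the other Esr1 start, not shown, held no match to either motif. A forkhead match was present in 7.29% and a GATA match in 26.5% of all 32851 windows of this length. The Gata3 window held neither. It had 19 CpG dinucleotides, the Foxa1 window 21 and the Esr1 window 4, against a median of 6 over all windows. Of the elements read by the receptors themselves, AGGTCA for the oestrogen receptor (in 14.0% of windows) and TGTTCT for the progesterone receptor (in 16.1%), both searched on either strand, neither was in these 3 windows. A match is a description of the letters and no evidence of binding.

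The sort gate was checked on its own genes. Ptprc, which encodes CD45, was higher in the population gated as CD45-, with 7.26 ± 3.23 against 2.81 ± 0.68 (SD, n = 3 each; log2 difference 4.45, limma adjusted p = 0.596). For mice 1 to 3 Ptprc read 10.21, 7.76 and 3.82 under the tumorigenic label and 2.33, 3.59 and 2.51 under the nontumorigenic label. Cd24a had a log2 difference of -0.55 and Thy1 of 0.24 (limma adjusted p = 0.683 and 0.910). The populations are therefore named by their labels throughout. On the array labelled tumorigenic of mouse 2, the 3' control probe set of Gapdh exceeded the 5' one by 6.60 log2 units, against 2.41 to 3.81 on the other 5 arrays. Without that array the log2 differences were -0.66 for Gata3, -0.71 for Foxa1, -0.29 for Esr1, 0.40 for Pgr, 1.38 for Tnfsf11, -0.29 for Cited1 and -0.08 for Tbx3, with a median of -0.29, and none passed the adjusted threshold by limma. The 18S ribosomal RNA controls also differed between the labels. The 3' probe set read 7.76, 6.32 and 7.38 (mice 1 to 3) under the tumorigenic label and 8.97, 8.52 and 8.66 under the nontumorigenic label, and the 5' one 6.84, 5.17 and 7.11 against 8.26, 8.27 and 7.84. In every mouse both read lower on the tumorigenic-label array, and the groups did not overlap, as for Gata3; the part of RNA quality in the members' values was not tested.

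No member passed the adjusted threshold. By limma over all 18193 genes, 0 of 7 members had a Benjamini-Hochberg adjusted p below 0.05, where 1 gene did (0.0055% of all genes, Ramp2, adjusted p = 0.049). With the mouse as a block Ramp2 was no longer called (limma adjusted p = 0.413), and 0 of all genes passed. Adjusted p-values of the members ran from 0.594 for Gata3 to 0.970 for Tbx3. At an unadjusted p below 0.05 there was 1 member, Gata3, or 14.3%, against 7.74% of all genes. With the mouse as a block there were 3, namely Foxa1, Gata3 and Tnfsf11, against 8.93% of all genes, and their adjusted p lay between 0.467 and 0.526. The ranges of the labels did not overlap in 2 members, Gata3 on the lower side and Tnfsf11 on the higher side, against 11.2% of all genes (5.16% lower and 6.07% higher). The sign was the same in all 3 mice for 3 members, Gata3 and Foxa1 lower and Tnfsf11 higher, against 13.6% of all genes lower and 14.4% higher. Without the tumorigenic-label array of mouse 3, the ranges did not overlap in 4 members, with Esr1 and Foxa1 added, against 28.7% of all genes under the same setting, and without both arrays of mouse 3 in 5, with Cited1 as well, against 38.3%. The median log2 difference of the 7 members was -0.16, against -0.0044 over all genes, and it was 0.13 without the nontumorigenic-label array of mouse 2.

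**Figure D1:**
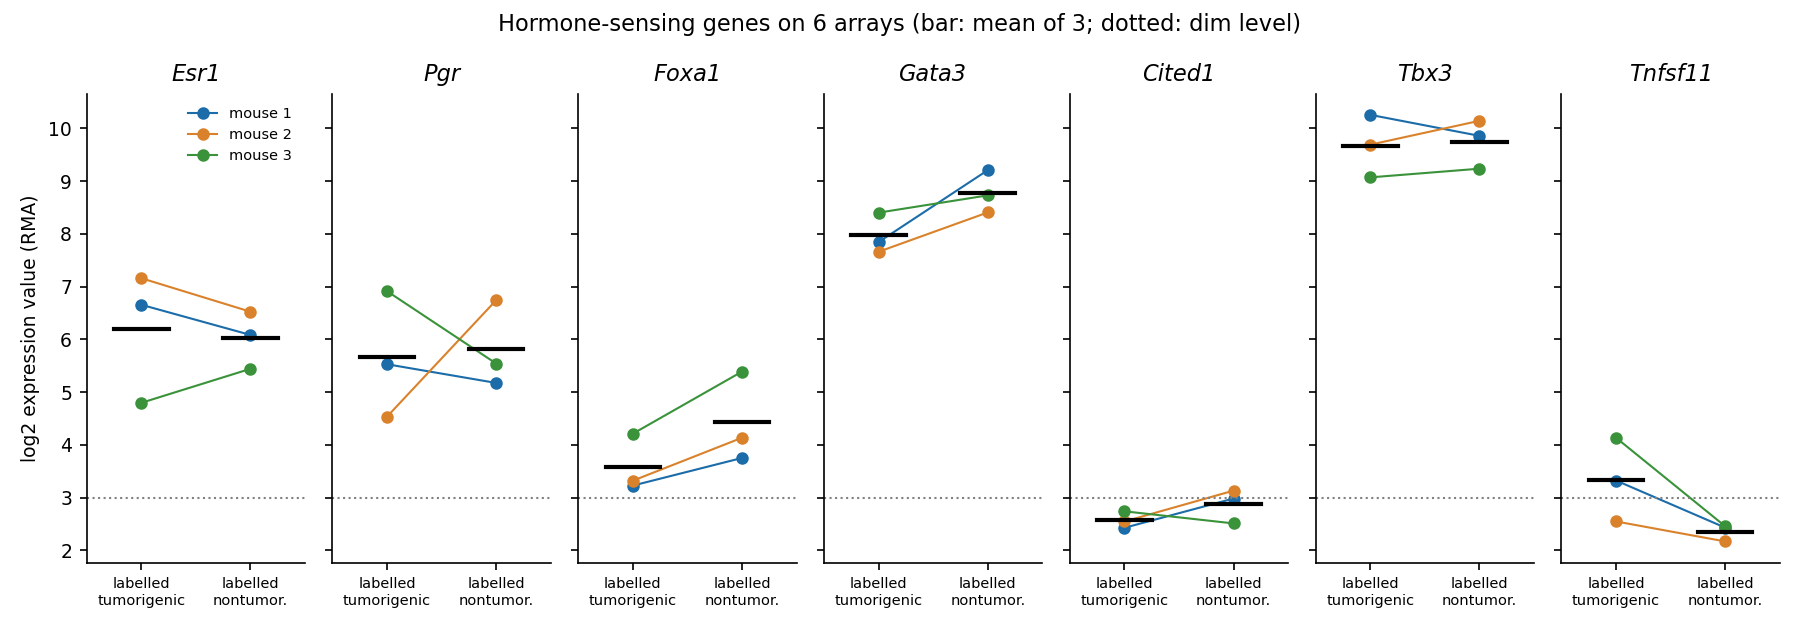
Log2 expression values (vertical axis) of 7 genes in the labelled tumorigenic and labelled nontumorigenic population of 3 mice. Points are arrays, coloured lines join the arrays of a mouse, black bars are means of 3 arrays, and the dotted line is the dim level of 2.98. Gata3 and Foxa1 lines go up to the right in all 3 mice and Tnfsf11 lines go down, while the lines of the other 4 genes go both ways.

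Gata3 was lower under the tumorigenic label in every mouse. For mice 1, 2 and 3 in turn, Gata3 read 7.85, 7.66 and 8.40 under the tumorigenic label and 9.21, 8.41 and 8.73 under the nontumorigenic label. All 3 arrays labelled tumorigenic lay below all 3 labelled nontumorigenic, but the 2 nearest, mouse 3 of the first and mouse 2 of the second, were only 0.0039 log2 units apart. The means of 3 arrays (± SD) were 7.97 ± 0.39 and 8.78 ± 0.40, which gives a log2 difference of -0.81 (SE 0.29, 95% interval -1.52 to -0.10; limma adjusted p = 0.594), or 1.76-fold. The interval is not adjusted for the number of genes. The differences within mice 1, 2 and 3 were -1.36, -0.75 and -0.33. Leaving out 1 array gave values from -1.03 to -0.60, and the lowest adjusted p of any alternative, 0.223, came without the tumorigenic-label array of mouse 3. A difference at least as far below 0 was present in 3.28% of all genes.

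Gata3 is also known from T cells and innate lymphoid cells, so a list of their markers is set beside it. Over its 10 measured genes, which include Cd3e, Cd3g and Cd4, the mean log2 level was 6.53, 4.14 and 3.44 (mice 1 to 3) under the tumorigenic label and 3.88, 4.15 and 3.78 under the nontumorigenic label. The list mean was highest on the tumorigenic-label array of mouse 1, in which Gata3 was the second lowest of 6. Single markers differed from the mean: Cd3e read 10.28, 6.95 and 3.50 under the tumorigenic label and 7.15, 7.29 and 7.05 under the nontumorigenic label. Luminal markers went the same way as Gata3: all 10, among them the keratins Krt8 and Krt18 and the adhesion protein Epcam, were lower under the tumorigenic label in mean. Their mean level was 6.49, 8.45 and 8.49 (mice 1 to 3) under the tumorigenic label and 9.48, 9.40 and 9.79 under the nontumorigenic label, and the median log2 difference was -1.67. Within mice 1, 2 and 3 that median was -2.92, -0.56 and -1.42. For Gata3 and for the luminal markers alike the most negative difference was in mouse 1. The order of mice 2 and 3 was not shared, with -0.75 and -0.33 for Gata3. The part of lymphoid or of luminal content in the Gata3 difference was not tested.

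Foxa1 was also lower under the tumorigenic label in every mouse, with a wider spread between mice. In mouse order 1 to 3, Foxa1 read 3.23, 3.32 and 4.21 under the tumorigenic label and 3.75, 4.13 and 5.39 under the nontumorigenic label. Mouse 3 was the highest in both populations, and its labelled tumorigenic array lay above the labelled nontumorigenic arrays of mice 1 and 2, so the groups overlapped. The means of 3 arrays (± SD) were 3.59 ± 0.54 and 4.42 ± 0.86, which gives a log2 difference of -0.84 (SE 0.50, 95% interval -2.07 to 0.39; limma adjusted p = 0.729). With the mouse as a block the SE was 0.19 (limma, unadjusted p = 0.012, adjusted p = 0.467). Within mice 1, 2 and 3 the difference was -0.52, -0.81 and -1.18, the reverse of the order for Gata3. Without the nontumorigenic-label array of mouse 3 the difference was -0.36, and without that of mouse 1 it was -1.17. Foxa1 was measured by 1 probe set, not far above the dim level. That level, 2.98, bounds the 25% of probe sets with the lowest means.

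Esr1 differed between mice more than between labels. In mouse order 1 to 3, Esr1 read 6.66, 7.16 and 4.80 under the tumorigenic label and 6.08, 6.52 and 5.44 under the nontumorigenic label. Mouse 2 was highest and mouse 3 lowest in both populations, and the highest and lowest of all 6 arrays were both labelled tumorigenic. The means of 3 arrays (± SD) were 6.20 ± 1.25 and 6.02 ± 0.55, which gives a log2 difference of 0.19 (95% interval -1.45 to 1.82, limma adjusted p = 0.958). This interval, from the fit without the mouse as a block, leaves room for a difference of over 2-fold either way. With the mouse as a block the SE was smaller, 0.33 against 0.66 (limma adjusted p = 0.910). Within mice 1, 2 and 3 the difference was 0.57, 0.64 and -0.64. It was -0.04 without the tumorigenic-label array of mouse 1, -0.29 without that of mouse 2, -0.10 without the nontumorigenic-label array of mouse 3, and 0.89 without the tumorigenic-label array of mouse 3.

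Mouse 3 had the lowest Esr1 and the highest level of its partner Foxa1 in both populations, while mouse 2 exceeded mouse 1 for both genes in both. Esr1 is known from stromal fibroblasts as well as from epithelium, and a list of 8 fibroblast genes, among them the collagens Col1a1 and Col3a1, is set beside it. The mean level of that list was 10.68, 10.60 and 9.06 (mice 1 to 3) under the tumorigenic label and 9.63, 10.28 and 10.10 under the nontumorigenic label. Both Esr1 and the fibroblast list were high in labelled tumorigenic mice 1 and 2 and lowest in labelled tumorigenic mouse 3. Under the nontumorigenic label they differed: the list was lowest in mouse 1, at 9.63, and Esr1 in mouse 3, at 5.44. Of the 8 fibroblast genes 5 had positive and 3 negative differences, and the median was 0.07, or 0.94, 0.46 and -0.80 within mice 1 to 3. The part of fibroblast content in the Esr1 values was not tested.

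Pgr, itself a target of the oestrogen receptor, had the most divergent differences within mice of the 7 members. In mouse order 1 to 3, Pgr read 5.53, 4.53 and 6.91 under the tumorigenic label and 5.17, 6.74 and 5.54 under the nontumorigenic label. The highest and the lowest array were both labelled tumorigenic, and the array with the lowest Esr1 was the one with the highest Pgr. The means of 3 arrays (± SD) were 5.66 ± 1.20 and 5.82 ± 0.82, which gives a log2 difference of -0.16 (95% interval -1.90 to 1.58, limma adjusted p = 0.965). Within mice 1, 2 and 3 it was 0.35, -2.21 and 1.37. The sign rested on mouse 2: the difference was 0.40 without its labelled tumorigenic array, 0.30 without its labelled nontumorigenic array and 0.86 without both. The tumorigenic-label array of mouse 2, whose Gapdh difference was the widest, had the lowest Pgr of all.

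**Figure D2:**
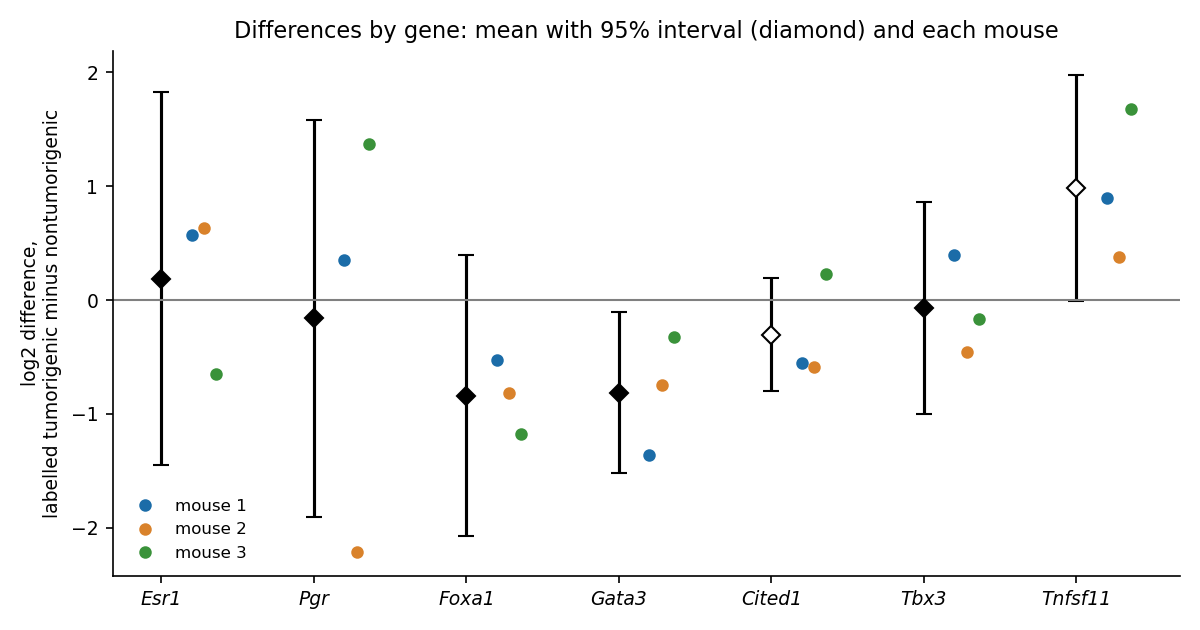
Log2 difference between the labelled populations (vertical axis) for 7 genes. Diamonds are differences of means with the 95% interval from limma without the mouse as a block. They are open where the gene's mean is below the dim level, and coloured points are the differences within each mouse. The interval of Gata3, from -1.52 to -0.10, leaves out 0, and the mice are on both sides of 0 for Esr1, Pgr, Cited1 and Tbx3.

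Tnfsf11, the RANK ligand, was higher under the tumorigenic label on the probe set with the higher mean (1419083_at). Its values for mice 1 to 3 were 3.32, 2.55 and 4.13 under the tumorigenic label and 2.43, 2.17 and 2.46 under the nontumorigenic label. All 3 arrays labelled tumorigenic lay above all 3 labelled nontumorigenic, by 0.09 log2 units at the nearest, and only those of mice 1 and 3 were above the dim level. The means of 3 arrays (± SD) were 3.34 ± 0.79 and 2.35 ± 0.16, which gives a log2 difference of 0.98 (SE 0.40, 95% interval -0.01 to 1.98; limma adjusted p = 0.650). Within mice 1 to 3 it was 0.89, 0.38 and 1.68, and it was 0.58 without the tumorigenic-label array of mouse 3. The other probe set (1451944_a_at) went the other way, with 2.32, 2.56 and 2.66 against 2.91, 2.66 and 2.66, a log2 difference of -0.23 (SE 0.15). With both averaged the Tnfsf11 difference was 0.38. T cells also make RANK ligand. The highest Tnfsf11 array, labelled tumorigenic mouse 3, had the lowest mean level of the lymphoid markers, 3.44, and also the highest Pgr. The array with the second highest Pgr, 6.74, was labelled nontumorigenic mouse 2 and had the lowest Tnfsf11, 2.17. The part of T cells or of Pgr in the Tnfsf11 values was not tested.

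Cited1, a coactivator of the oestrogen receptor that is used as a marker of hormone-sensing cells, was dim on nearly every array. Its values for mice 1 to 3 were 2.43, 2.55 and 2.74 under the tumorigenic label and 2.98, 3.13 and 2.51 under the nontumorigenic label. Only the labelled nontumorigenic array of mouse 2 was clearly above the dim level of 2.98. The log2 difference was -0.30 (SE 0.20, 95% interval -0.80 to 0.19; limma adjusted p = 0.760), or -0.56, -0.59 and 0.23 within mice 1 to 3. It was -0.49 without the nontumorigenic-label array of mouse 3 and -0.17 without that of mouse 2.

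Tbx3, a T-box repressor required for early mammary development, differed little between the labels in mean. Its values for mice 1 to 3 were 10.26, 9.69 and 9.07 under the tumorigenic label and 9.86, 10.14 and 9.24 under the nontumorigenic label. Mouse 3 was lowest in both populations, as for Esr1, while mice 1 and 2 changed order between the labels. The means of 3 arrays (± SD) were 9.67 ± 0.59 and 9.75 ± 0.46, which gives a log2 difference of -0.07 (95% interval -1.002 to 0.86, limma adjusted p = 0.970). Within mice 1, 2 and 3 it was 0.40, -0.45 and -0.16. The difference was 0.23 without the tumorigenic-label array of mouse 3, 0.13 without the nontumorigenic-label array of mouse 2 and 0.12 without both arrays of mouse 2.

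The other probe sets of these genes were examined for agreement. For Esr1 all 3 probe sets had positive differences, but 1435663_at ordered the arrays otherwise, with 4.87, 4.80 and 3.00 in labelled tumorigenic mice 1 to 3 against 2.55, 6.15 and 2.59. Its difference was 0.46 (SE 1.12), and 1421244_at was dim, with 0.08 (SE 0.12). For Pgr all 3 had negative differences, and the other 2 (1421444_at and 1455772_at) were dim on average, with -0.27 (SE 0.17) and -0.10 (SE 0.29). For Tbx3, 2 of 5 were positive and 3 negative, with values from -0.18 to 0.10. The second brightest Tbx3 probe set, 1437479_x_at, read 8.99, 8.49 and 7.82 against 8.64, 8.58 and 7.79, so mouse 3 was again lowest in both populations. Of 2 dimmer Tbx3 probe sets above the dim level, 1445757_at had mouse 3 highest under the nontumorigenic label (4.34, 4.73 and 4.85 for mice 1 to 3) and 1439567_at had mouse 1 lowest there (3.49, 3.96 and 3.67). Over all probe sets tested, none passed (limma, 0 of 45037 at an adjusted p below 0.05 and 3026, or 6.72%, at an unadjusted p below 0.05).

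**Figure D3:**
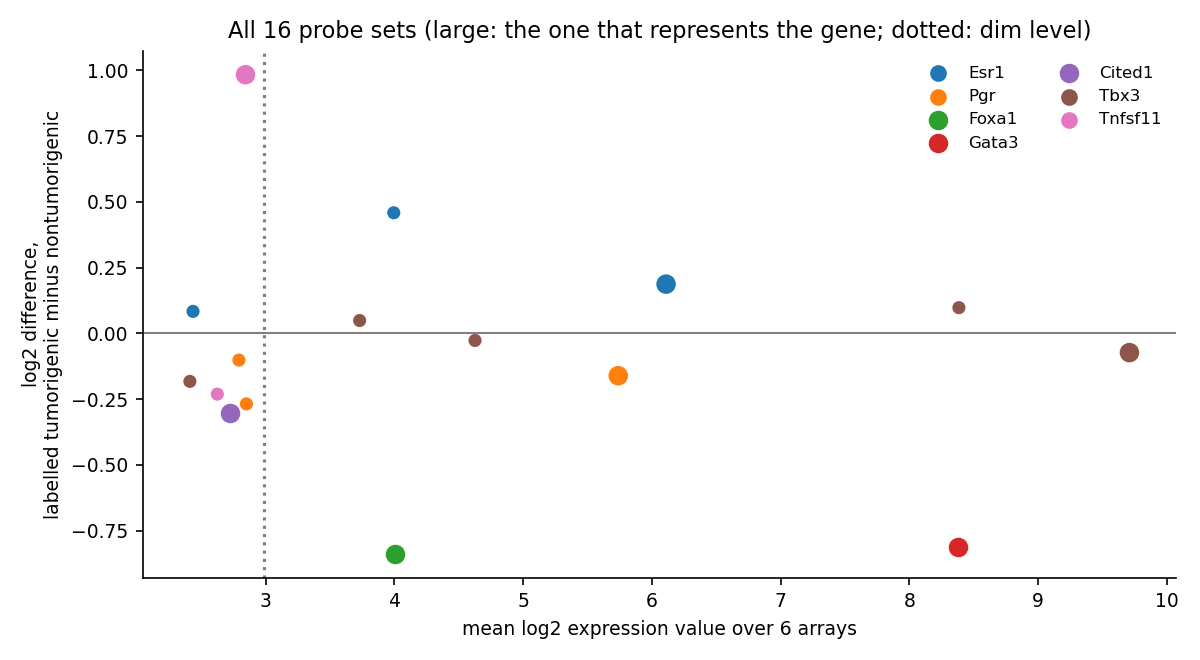
Log2 difference between the labelled populations (vertical axis) against the mean log2 value over 6 arrays (horizontal axis) for all 16 probe sets. Large points represent the gene, small points are its other probe sets, and the dotted line is the dim level of 2.98. The 2 Tnfsf11 probe sets, both left of the line, lie at 0.98 and -0.23, and the 5 Tbx3 probe sets lie between -0.18 and 0.10.

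Genes around these receptors were read from fixed lists, described by counts. Over all genes, 49.3% of differences were positive and 50.7% negative. By limma 7.74% of all genes had an unadjusted p below 0.05, and 13.6% were lower in all 3 mice. Of 12 measured oestrogen and progesterone response genes, 6 had positive and 6 negative differences, with a median of -0.0066 against -0.0044 over all genes, and 0 passed the adjusted threshold by limma (3 at an unadjusted p below 0.05, all lower). Those 3 were the cyclin Ccnd1 at -0.66 (SE 0.20), the secretory regulator Xbp1 at -0.63 (SE 0.20) and the scaffold protein Pdzk1 at -1.12 (SE 0.43), each lower in all 3 mice. The next by p, the transcription factor Myb, had -0.69 (SE 0.49). The paracrine factor Wnt4, a progesterone target, had -0.02 (SE 0.20). Of 11 partners and cofactors of the nuclear receptors, 8 had negative differences and 0 passed by limma (1 at an unadjusted p below 0.05). Their median was -0.24, with the coactivators Ncoa2 at -0.47 (SE 0.18) and Med1 at -0.41 (SE 0.25), the corepressor Nrip1 at -0.49 (SE 0.24) and the orphan receptor Esrra at -0.24 (SE 0.13).

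Among 8 factors that work with Gata3 or Foxa1, 6 had negative differences, the median was -0.30 and 0 passed by limma (1 at an unadjusted p below 0.05). The AP-2 factor Tfap2a had -1.44 (SE 0.65), the grainyhead factor Grhl2 -0.90 (SE 0.44) and Tfap2c -0.37 (SE 0.26). Zfpm2, a GATA cofactor better known from heart and gonad, went the other way, with 2.39 (SE 0.64), or 2.78, 3.84 and 0.54 within mice 1 to 3. In the RANK ligand axis, 2 of 5 measured genes were positive and 3 negative, the median was -0.06 and 0 passed by limma (0 also at an unadjusted p below 0.05). The receptor Tnfrsf11a had -0.44 (SE 0.26), the decoy receptor Tnfrsf11b 0.76 (SE 0.59), Id2, which acts downstream of RANK in the gland, -0.33 (SE 0.20), and the adaptor Traf6 0.24 (SE 0.33).

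Of 14 relatives of the members, 6 had positive and 8 negative differences, with a median of -0.01 and 0 past the threshold by limma (0 also at an unadjusted p below 0.05). Tbx1 had 1.19 (SE 0.54), the growth hormone receptor Ghr, of the same receptor class as Prlr, 0.43 (SE 0.38), Cited2 -0.46 (SE 0.40) and Gata5 -0.16 (SE 0.12). Gata2 had 0.10 (SE 0.20), against -0.81 for Gata3.

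Markers of other cell types differed between the labels on the same arrays. All 12 macrophage and pan-leukocyte genes were higher under the tumorigenic label. Their mean level was 10.99, 9.53 and 6.01 (mice 1 to 3) against 4.24 to 4.35. All 8 endothelial genes were higher as well, at 7.19 to 7.83 against 5.42 to 6.16. The 9 alveolar and luminal progenitor genes were all lower, at 6.99 to 7.16 against 8.54 to 9.08, with a median difference of -1.75. For basal and myoepithelial genes 9 of 10 differences were positive, with a median of 0.45, but within mice 1 to 3 the median was -0.04, 0.13 and 1.28. Their highest mean level, 10.59, was on the labelled tumorigenic array of mouse 3, where Pgr and Tnfsf11 were also highest. Of lymphoid markers 9 of 10 and of adipocyte markers 6 of 6 were higher in mean, with medians of 0.66 and 0.76. Within mice 1 to 3 the medians were 2.59, -0.04 and 0.05 for lymphoid and 0.28, 1.46 and 0.48 for adipocyte markers. The adipocyte list stood highest, at 7.004, on the labelled tumorigenic array of mouse 2. Their part in the members' values was not tested.

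**Figure D4:**
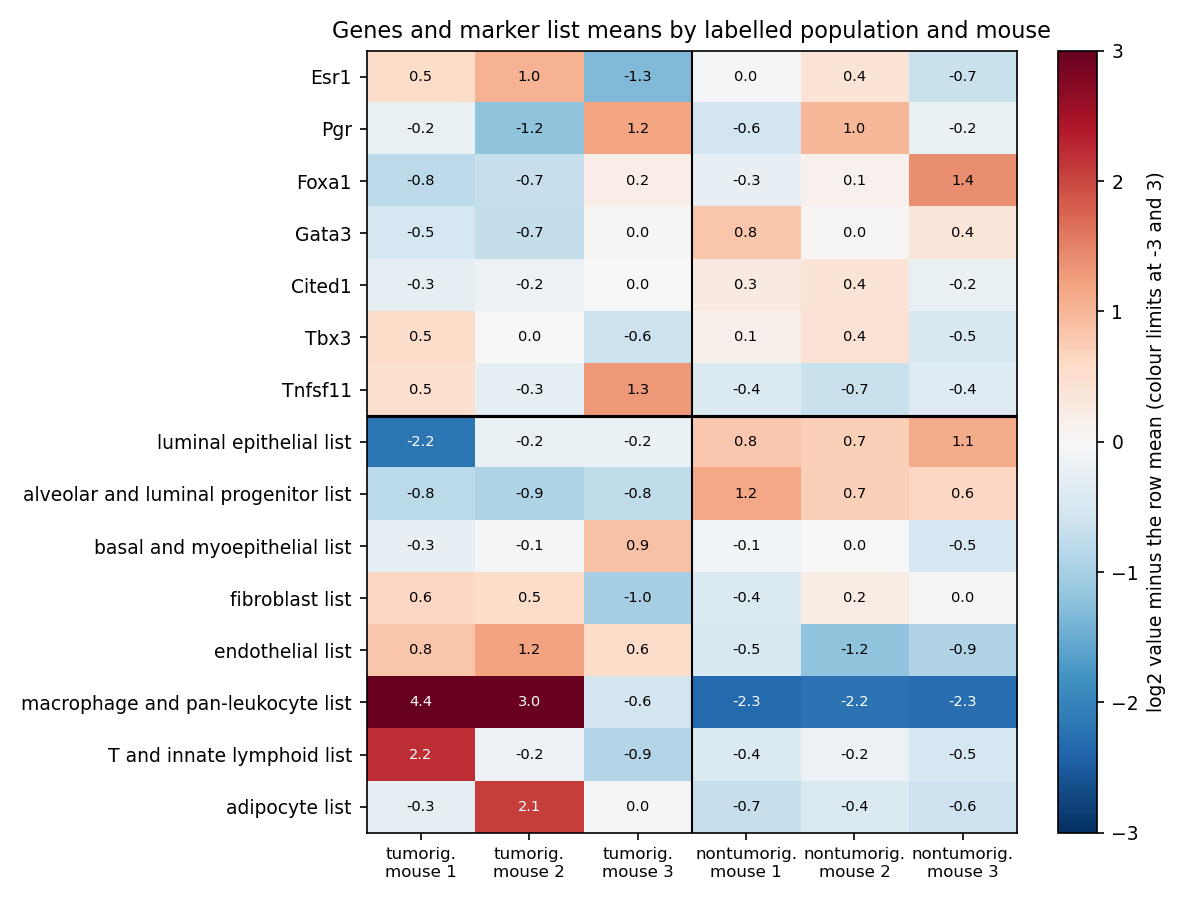
Log2 value minus the row mean for 7 genes and 8 marker list means (rows) on 6 arrays (columns, by label and mouse); red is above and blue below the row mean, and numbers give the value. Esr1, Tbx3, the fibroblast list and the T and innate lymphoid list are each lowest on the labelled tumorigenic array of mouse 3. Luminal lists are lower in all 3 labelled tumorigenic arrays than in the other 3.

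The genes whose pattern was most like that of each member above the dim level were found by Pearson r over the 6 arrays. These come 2 from each mouse, so r is a description only. It was taken over 4662 or 4663 genes that were above the dim level and had an SD of at least 0.5. Esr1 was most like the chemokine Ccl2 (r = 0.995) and the homeobox gene Hoxc8 (r = 0.989). Pgr was most like the pseudokinase Trib1 (r = 0.985) and the helicase Ddx19b (r = 0.976). Foxa1 was most like Nme7 (r = 0.986) and the dynein subunit Dync2li1 (r = 0.984), with differences of -1.01 and -0.41. Gata3 was most like 2700049A03Rik (r = 0.995) and the RNA-binding protein Lsm6 (r = 0.993), with differences of -0.81 and -0.68. Tbx3 was most like Zfp618 (r = 0.999) and the potassium channel subunit Kcne4 (r = 0.982). An r above 0.95 was reached by 11 genes for Pgr and by 12 to 23 for the other 4 members.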

How the data were processed

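The authors deposited 1 log2 expression value per probe set and array, normalised between arrays with RMA per the submitters' processing notes. Its version and background step are unstated, that is, not given in the sources used here. Array medians were 4.36 to 4.40. RMA sets the arrays to a common distribution, and 37.0% of probe sets hold tied values on at least 2 arrays, so small differences of dim genes carry little information. Per the labels' protocols, total RNA was amplified and biotin-labelled. Arrays have no read depth; the number of arrays limits the precision.

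The 64 control probe sets were left out of tests. Symbols came from the platform annotation (34945 probe sets with 1 symbol, 932 with several, 9160 with none), and 34741 were matched by Entrez identifier to RefSeq genes of GRCm38.p6 with 0 symbols changed. No dim filter was set, since members of any level are included. The labels were compared by limma 3.58.1 in R 4.3.3 (lmFit, eBayes, two-sided, no covariate), with Benjamini-Hochberg adjustment over 18193 genes at 0.05, and the code was tested on simulated data. An exact permutation test of 3 arrays against 3 cannot reach 0.05 and was not used. Arrays with 1 mouse number come from 1 animal, which pairs them. Deviations of such arrays from their group means correlated at 0.08, 0.13 and 0.08 for mice 1 to 3 across genes. For arrays of different mice and labels the correlations were all lower, from -0.08 to -0.01. Deviations from a mean of 3 arrays cancel out within a group, so these lower values partly follow from the positive ones and are not separate evidence of pairing. A fit with the mouse as a replicate block was an alternative, beside dim filters, renewed normalisation, other priors, weights and probe set choices, and leaving out arrays or mice.

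The members and lists were chosen with earlier results of these data known. Lists covered steroid response, receptor cofactors, Gata3 and Foxa1 cofactors, the RANK ligand axis, family relatives and markers of luminal, alveolar, basal, macrophage, lymphoid, endothelial, fibroblast and adipocyte cells. Genes named were all members, the sort gate genes, the genes with the smallest p of a list (up to 4), and the 2 genes most like each member. Gata2, Wnt4 and the marker genes given as examples were named outside that rule, after their values were seen.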

Additional observations from a re-analysis of the deposited data

How the results depend on the processing

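Under 18 alternatives, 121 values of single members were recomputed. Of these 109 kept their sign and stayed on the same side of the adjusted threshold, 12 turned sign, and the lowest adjusted p was 0.223. The 12 belong to Esr1, Pgr and Tbx3. Tbx3 was 0.10 with the probe set of largest SD. Leaving out 1 array gave -0.29 to 0.89 for Esr1, -0.79 to 0.40 for Pgr and -0.36 to 0.23 for Tbx3, and leaving out 1 mouse gave -0.04 to 0.60, -0.93 to 0.86 and -0.31 to 0.12. With the mouse as a replicate block 0 genes and 0 members passed, and no other call changed. The count of genes past the threshold, 1 as reported (Ramp2), was also 0 with the lowest 25% or 50% of probe sets left out, with quantile normalisation again, with each array centred on its median, with a trended and robust prior and with the probe set of largest SD. It was 0 to 1 without 1 array, where the 1 gene was Ccl3, and 0 without any 1 mouse. The count of probe sets was 1 with the trended and robust prior and 0 to 1 without 1 array. Members whose groups do not overlap, 2 as reported, were 1 with either dim filter, since Tnfsf11 was then left out. Of the genes kept, the groups did not overlap in 12.5% (lowest 25% left out) and 14% (lowest 50% left out). The count was also 1 with a gene's probe sets averaged (11.9% of all genes). It was 1 with arrays centred on their medians (14% of all genes), where Gata3 overlapped. Without 1 array it was 2 to 4, where the groups did not overlap in 18% to 28.7% of all genes. Without 1 mouse it was 2 to 5, against 28.1% to 38.3%. The members' median lay between -0.39 and 0.13 without 1 array and between -0.57 and -0.04 without 1 mouse. Foxa1, Gata3, Cited1 and Tnfsf11 kept their sign under every alternative that could give a value. Cited1 and Tnfsf11, whose means are below the dim level, had none under the dim filters, and Foxa1 none under the stricter filter. Several of the alternatives could not turn a sign. The block, the prior and the dim filters leave a member's difference unchanged. Probe set choices do so for Foxa1, Gata3 and Cited1, with 1 probe set each. A member with 1 sign in all 3 mice cannot turn when 1 mouse is left out. No alternative used the Tnfsf11 probe set 1451944_a_at alone, which had -0.23.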
